A study of Mus musculus with 12 samples.

Results

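The small leucine-rich proteoglycans are secreted proteins of the extracellular matrix, and the genes examined were 9 of them (Dcn, Bgn, Aspn, Lum, Fmod, Prelp, Omd, Ogn and Podn) together with Lrrc17, a gene for a secreted leucine-rich repeat protein outside the family. They are 10 of the 28689 genes of the RNA-seq table, found by symbol after the Ensembl identifiers were matched to the GENCODE annotation of GRCm39. They were chosen from the difference between the groups in this same table, in which Dcn was higher and Lrrc17 lower in dKO, so their levels and fold changes in that comparison are given as a description and without a test.

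The libraries were made from mouse lung endothelial cells (MLECs) of adult male mice. The labels name lung as the tissue, but their extraction text speaks of retinas, a conflict the sources do not settle. CTR and dKO mice carried the same floxed alleles, Sp1 fl/fl and Sp3 fl/fl, and both were given tamoxifen, as the methods describe them. The labels give the genotype of CTR only as WT. Only dKO mice carried VE-CAD-CreERT2, in which the VE-cadherin promoter drives a Cre recombinase that tamoxifen activates. The dKO group therefore models loss of Sp1 and Sp3 in cells that use this promoter, while other cell types in the culture would keep intact alleles. Each group had 6 libraries. The study describes its replicates in general as biologically independent, without saying how many mice went into a library, and p-values measure the spread between these libraries.

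Decorin, biglycan and their relatives carry a core protein of leucine-rich repeats, and many members bear chondroitin, dermatan or keratan sulfate chains. They bind collagen fibrils and set their diameter and spacing, and several also hold growth factors or signal through receptors of the cell surface. In most tissues the main source of these transcripts is the fibroblast and other mesenchymal cells, although biglycan is also made by endothelial cells. Lrrc17 was described as a factor made by osteoblasts that lowers osteoclast formation. Sp1 and Sp3 are zinc finger factors that bind GC-rich promoter elements.

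The promoters of the 4 genes that the results turn on are shown because Sp1 and Sp3 act through such elements. Each sequence runs from 250 bases before to 50 bases after the start of the canonical transcript, on the strand of the gene, in GRCm39. Other annotated starts were not searched, and the canonical start of Prelp, at 133849152, lies inside the gene, which runs to 133857971. Capitals mark the GC box (GGGCGG or CCGCCC) and the GT box (GGGTGG or CCACCC), both searched on both strands. Windows are chr10:97315025-97315324 (plus strand) for Dcn, chr5:21748308-21748607 (plus strand) for Lrrc17, chr1:133849103-133849402 (minus strand) for Prelp and chrX:72526958-72527257 (plus strand) for Bgn.
Dcn: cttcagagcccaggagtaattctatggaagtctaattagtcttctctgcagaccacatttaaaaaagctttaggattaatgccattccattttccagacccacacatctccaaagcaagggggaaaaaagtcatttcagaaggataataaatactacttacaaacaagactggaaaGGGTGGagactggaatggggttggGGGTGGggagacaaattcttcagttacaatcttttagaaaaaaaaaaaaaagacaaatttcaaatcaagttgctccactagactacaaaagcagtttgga
Lrrc17: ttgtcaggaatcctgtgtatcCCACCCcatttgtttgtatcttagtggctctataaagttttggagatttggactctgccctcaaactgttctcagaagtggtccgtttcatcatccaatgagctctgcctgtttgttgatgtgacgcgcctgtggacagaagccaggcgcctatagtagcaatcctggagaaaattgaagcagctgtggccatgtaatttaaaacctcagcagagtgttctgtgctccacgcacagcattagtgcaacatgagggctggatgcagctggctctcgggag
Prelp: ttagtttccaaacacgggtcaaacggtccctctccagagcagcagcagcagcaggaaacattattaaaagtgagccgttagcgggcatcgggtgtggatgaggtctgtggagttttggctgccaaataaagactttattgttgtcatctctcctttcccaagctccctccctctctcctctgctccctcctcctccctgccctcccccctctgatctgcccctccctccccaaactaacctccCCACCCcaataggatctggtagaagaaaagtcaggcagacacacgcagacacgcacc
Bgn: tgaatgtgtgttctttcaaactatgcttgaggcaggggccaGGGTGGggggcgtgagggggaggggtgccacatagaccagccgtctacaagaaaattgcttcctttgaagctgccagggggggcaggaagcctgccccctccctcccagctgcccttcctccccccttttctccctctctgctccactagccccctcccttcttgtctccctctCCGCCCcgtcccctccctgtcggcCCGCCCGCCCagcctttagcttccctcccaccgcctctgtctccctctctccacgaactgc

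Of the 4 genes shown, a GC box stood only in the Bgn promoter, which held 3, and the 2 nearest to the start share bases. Among all 10 genes, Podn was the other one with a GC box, 1 at position -66 from its start, and 8 genes had none in this window. A GT box was found in 4 genes, with 2 in Dcn and 1 each in Lrrc17, Prelp and Bgn. Among 17366 promoters of protein-coding genes of the table, 50.7% held a GC box and 36.0% held a GT box. The share of G and C was 38.0% in Dcn, 48.7% in Lrrc17, 54.3% in Prelp, 63.7% in Bgn and 75.0% in Podn, against a median of 56.7% over all these promoters. These matches describe letters in the window, and no binding was measured in these data.

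Before the values, 4 features of the libraries bear on every result. The recovered depth was similar, between 15523054 fragments (dKO 1) and 17938286 (dKO 4). Sp1 was 21.2 ± 1.77 FPKM in CTR and 10.6 ± 1.53 in dKO (SD, n = 6 each), with every dKO library below every CTR library, whereas Sp3 was 27.7 ± 2.31 and 25 ± 1.64, with 2 of 6 dKO libraries below all CTR libraries. Some markers of other cell types were abundant. Pdgfra, a fibroblast receptor, stood at 117 FPKM in CTR and 104 in dKO, above the endothelial gene Pecam1 (33.4 and 60.2) in both groups. Pdgfra was above Cdh5, that of VE-cadherin (88.9 and 140), in CTR alone. The macrophage gene Lyz2 stood at 746 and 1868. Other markers were low, such as Thy1 (7.17 and 7.15) and Gli1 (0.292 and 0.139) of fibroblasts. Among macrophage markers, Csf1r (2.53 and 11.8) and Itgam (1.16 and 8.24) were also far below Pecam1. The summed FPKM of 14 fibroblast markers ranged from 354.8 to 551.8 in CTR and from 214.7 to 470.1 in dKO, that of 10 endothelial markers from 201.7 to 333.7 and from 374.9 to 506.3. None of these lists had a gene at 0 in all libraries. Cells of different kinds are mixed in a bulk library, so fewer cells of a type and less RNA per cell cannot be told apart.

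The genes spanned a wide range of levels. In CTR the order by mean FPKM was Bgn, Ogn, Prelp, Podn, Lrrc17, Dcn, Aspn, Fmod, Lum and Omd, from 541 for Bgn to 0.160 for Omd. Among neighbours in this order, the ranges of Bgn and Ogn, of Ogn and Prelp, and of Lum and Omd did not overlap, and those of the other pairs did. Within libraries, Dcn was still above Aspn and Aspn above Fmod in 6 of 6, Prelp above Podn and Lrrc17 above Dcn in 5, Fmod above Lum in 4 and Podn above Lrrc17 in 3. In dKO the order was Bgn, Ogn, Prelp, Dcn, Podn, Aspn, Lum, Lrrc17, Fmod and Omd. There, Bgn stood apart from Ogn and Aspn from Lum, and the other neighbours overlapped. Dcn stood below Podn and Lrrc17 in CTR and above both in dKO. Groups of the same gene did not overlap for 2 of the 10 genes, Dcn (dKO above) and Lrrc17 (dKO below), where 14.6% of all 28689 genes had groups that did not overlap. Among the 12467 genes with enough signal to be tested, the share was 27.4%, with 11.3% above and 16.1% below. These shares are background, since the difference between the groups had chosen the genes.

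**Figure D1:**
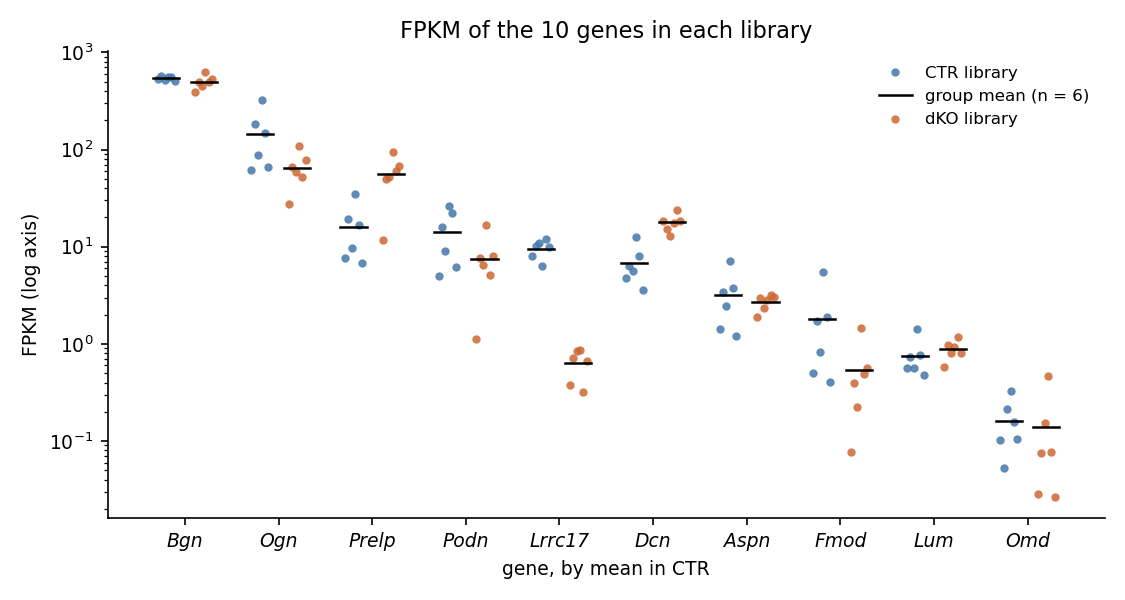
FPKM of each gene in each library on a log axis, with genes ordered by their mean in CTR, 6 CTR libraries in blue and 6 dKO libraries in orange, and the black line at the group mean. Bgn lies highest in both groups, the 6 dKO libraries of Lrrc17 lie below 1 while those of CTR lie between 6.28 and 11.9, and the 6 dKO libraries of Dcn all lie above the CTR libraries.

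Genes that reached 1 FPKM in 6 or more libraries were fitted with limma on log2(FPKM + 1), 12467 in all. Of the 10 genes, 7 passed, and Lum, Fmod and Omd did not. Lrrc17 passed through its CTR libraries alone. Among the list and marker genes below, Chst13 also passed through CTR alone, and Xylt1, Mmp12, Tnfrsf11a and Fcgr1 through dKO alone. The filter thus drew on the difference of these genes, so the p-values and calls of the list and marker genes among them add no separate support. Fold changes below are dKO minus CTR on this log2(FPKM + 1) scale, which understates the change of low genes. Differences were widespread: 53.1% of the tested genes had an adjusted p under 0.05 (limma, Benjamini-Hochberg), 20.4% higher and 32.6% lower, and 1.98% also had an absolute log2 fold change over 1.5, 1.43% higher and 0.553% lower. The median log2 fold change of all tested genes was -0.10, with the middle 90% between -0.76 and 0.86. Among the 7 fitted genes, 2 were higher and 5 lower by the sign of the fold change, with a median of -0.13.

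The first class of the family holds Dcn, Bgn and Aspn. Decorin binds collagen fibrils and also transforming growth factor beta and several receptor tyrosine kinases. Dcn (ENSMUSG00000019929, chr10:97315275-97358155, plus strand) stood at 4.74, 6.40, 5.56, 12.6, 7.98 and 3.61 FPKM in CTR 1 to 6 and at 18.5, 15.2, 12.8, 17.7, 24.1 and 18.3 in dKO 1 to 6. All dKO libraries lay above all CTR libraries, by little at the nearest pair, CTR 4 and dKO 3. The means were 6.82 ± 3.20 and 17.8 ± 3.78 FPKM (SD, n = 6), a ratio of 2.60, and the log2 fold change was 1.33 (SE 0.22). These values rest on 4092 fragments in CTR and 10641 in dKO. Rescaled to TPM, CTR 4 lay just above dKO 3, so that the groups overlapped, while the log2 fold change was 1.38. Without CTR 4 the log2 fold change on the deposited scale was 1.51.

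Biglycan, with the same collagen-binding role and an added one as a ligand of Toll-like receptors, was the most abundant transcript of the 10. Bgn (ENSMUSG00000031375, chrX:72527208-72539541, plus strand) ranged from 509 to 569 FPKM in CTR with a median of 543, and from 396 to 629 in dKO with a median of 495. The groups overlapped, with 4 dKO libraries below all CTR libraries and dKO 4 above them. The dKO libraries were also more spread, their highest being 1.59 times their lowest against 1.12 times in CTR. The log2 fold change was -0.13 (SE 0.10). Asporin, which competes with decorin for collagen, gave no clear direction. Aspn (ENSMUSG00000021388, chr13:49697609-49721057, plus strand) ranged from 1.2 to 7.15 FPKM in CTR (median 2.92) and from 1.89 to 3.18 in dKO (median 2.89), so all dKO libraries lay within the CTR range. Its log2 fold change was -0.05 (SE 0.26) and turned to 0.17 without CTR 4.

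The second class holds Lum, Fmod, Prelp and Omd, which are keratan sulfate carriers or carry short glycans. Prelp, which binds both collagen and the heparan sulfate of basement membranes, had the largest positive fold change of the 7 fitted genes. Prelp (ENSMUSG00000041577, chr1:133837335-133857971, minus strand) stood at 7.65, 19.4, 9.71, 34.8, 16.8 and 6.76 FPKM in CTR 1 to 6 and at 11.8, 50.04, 52.4, 94.6, 60.4 and 67.8 in dKO 1 to 6. In dKO, 5 libraries lay above all CTR libraries, and dKO 1 lay inside the CTR range. The means were 15.9 ± 10.6 and 56.2 ± 27.0 FPKM, a ratio of 3.54, and the log2 fold change was 1.76 (SE 0.47). Without dKO 1 it was 2.15 and the groups no longer overlapped.

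Fmod, whose fibromodulin directs collagen fibril assembly and cross-linking, had a lower mean in dKO, at a low level. Fmod (ENSMUSG00000041559, chr1:133964992-133976015, plus strand) ranged from 0.409 to 5.47 FPKM in CTR (median 1.28) and from 0.0779 to 1.47 in dKO (median 0.439), with 3 dKO libraries below all CTR libraries. It did not pass the filter, and a fit of all genes without the filter gave -0.71 (SE 0.35). Lum, the gene of lumican, an organiser of fibrils in cornea and skin, overlapped fully between groups. Lum (ENSMUSG00000036446, chr10:97400990-97408577, plus strand) ranged from 0.480 to 1.43 FPKM in CTR and from 0.579 to 1.17 in dKO, and its fold change without the filter was 0.11 (SE 0.12). Omd, the gene of osteomodulin of mineralised tissue, was near the limit of detection. Omd (ENSMUSG00000048368, chr13:49735938-49746298, plus strand) had between 1 and 19 fragments in a library, at a mean of 0.160 FPKM in CTR and 0.138 in dKO, so a difference was not detectable at this depth.

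Ogn and Podn belong to further classes, and both had lower means in dKO with overlapping groups. Osteoglycin, also called mimecan, takes part in collagen fibrillogenesis and was second in level after Bgn. Ogn (ENSMUSG00000021390, chr13:49761349-49780412, plus strand) stood at 61.3, 183, 87.9, 321, 148 and 66.4 FPKM in CTR 1 to 6 and at 27.6, 66.9, 59.0, 108, 52.6 and 77.7 in dKO 1 to 6. In dKO, 3 libraries lay below all CTR libraries, and the other 3 lay within the CTR range. The log2 fold change was -0.99 (SE 0.41) and -0.71 without CTR 4. Podocan is known to restrain smooth muscle cell growth, and its transcript had the largest SD of log2(FPKM + 1) within groups among the 7 fitted genes. Podn (ENSMUSG00000028600, chr4:107871988-107889534, minus strand) ranged from 4.96 to 26.3 FPKM in CTR (median 12.5) and from 1.12 to 16.8 in dKO (median 7.03), with 1 dKO library below all CTR libraries. Its log2 fold change of -0.85 (SE 0.49) came to -0.50 without dKO 1.

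Lrrc17 had the largest absolute fold change of the 7 fitted genes. Lrrc17 (ENSMUSG00000039883, chr5:21748557-21780974, plus strand) stood at 7.98, 10.2, 10.9, 6.28, 11.9 and 10.01 FPKM in CTR 1 to 6 and at 0.375, 0.707, 0.836, 0.865, 0.317 and 0.667 in dKO 1 to 6. The lowest CTR library was still several times the highest dKO library. The means were 9.55 ± 2.06 and 0.628 ± 0.232 FPKM, a ratio of 15.2, and 235 fragments in all stood behind the dKO values against 3521 in CTR. On the log2(FPKM + 1) scale the fold change was -2.68 (SE 0.14). With a pseudocount of 0.1 it was -3.77, since the dKO values lie under the pseudocount of 1. Fbxl13, a gene of the opposite strand that spans Lrrc17, stood at 0.222 ± 0.0786 FPKM in CTR and 0.0431 ± 0.0168 in dKO, and without a stated strand setting reads of the overlapping parts cannot be told apart.

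**Figure D2:**
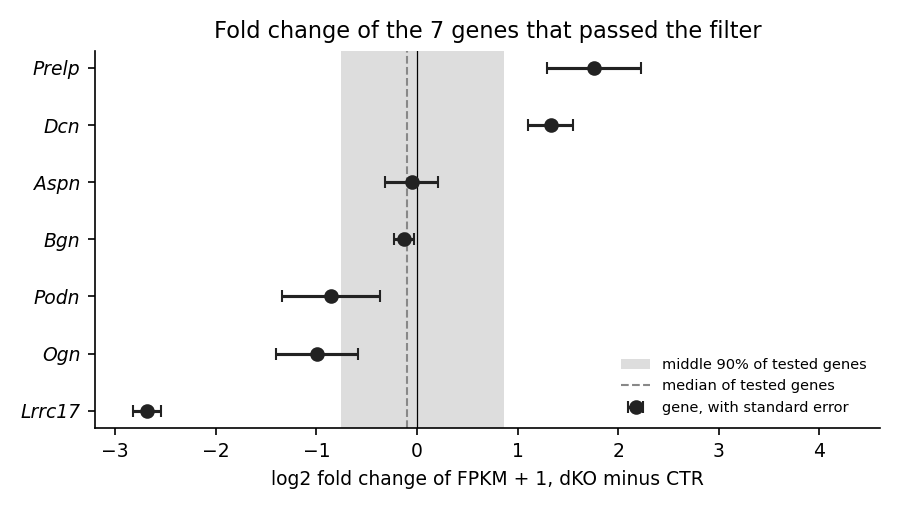
Log2 fold change of FPKM + 1, dKO minus CTR, of the 7 genes that passed the filter, with its standard error as bars, over the middle 90% of all tested genes in grey. Prelp (1.76) and Dcn (1.33) lie to the right of the grey band, Lrrc17 (-2.68), Ogn (-0.99) and Podn (-0.85) to its left, and Aspn and Bgn near 0.

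The relative levels of the proteoglycans within a library were also compared. The summed FPKM of the 9 proteoglycans was 728 ± 142 in CTR and 650 ± 137 in dKO, with Bgn making up 76.1% ± 11.0 and 77.6% ± 4.83 of it. Of all 9, Ogn made up 10.01% to 33.2% in CTR and 6.03% to 12.4% in dKO, and Prelp 1.14% to 3.60% and 2.58% to 10.8%, both with overlap, whereas the share of Dcn, 0.608% to 1.31% and 2.03% to 4.04%, did not overlap. Bgn sets most of this total, and the shares below, a choice made after the values were seen, leave it out. Ogn made up 76.7% ± 2.20 of the remaining 8 in CTR, between 73.5% and 79.3%, and 43.2% ± 3.76 in dKO, between 35.8% and 46.4%. Prelp made up 8.49% ± 0.495 in CTR and 35.2% ± 8.13 in dKO. For Dcn the shares were 4.11% ± 1.12 and 14.03% ± 8.40, and dKO 1 had the highest, 30.0%. The 2 groups did not overlap in the share of Ogn, Prelp or Dcn, while those of Podn did, at 7.57% ± 1.75 and 4.47% ± 1.72. The shares of Dcn, of all 9 and of these 8, hold the difference in Dcn by which the genes were chosen. The CTR shares of Ogn and Prelp were narrow although the sum of these 8 genes ran from 81.2 to 409 FPKM among CTR libraries. Those of Dcn (2.77% to 5.83%) and Podn (6.1% to 10.9%) varied more. Shares of a sum are bound to each other, so a higher share of Prelp lowers that of Ogn.

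**Figure D3:**
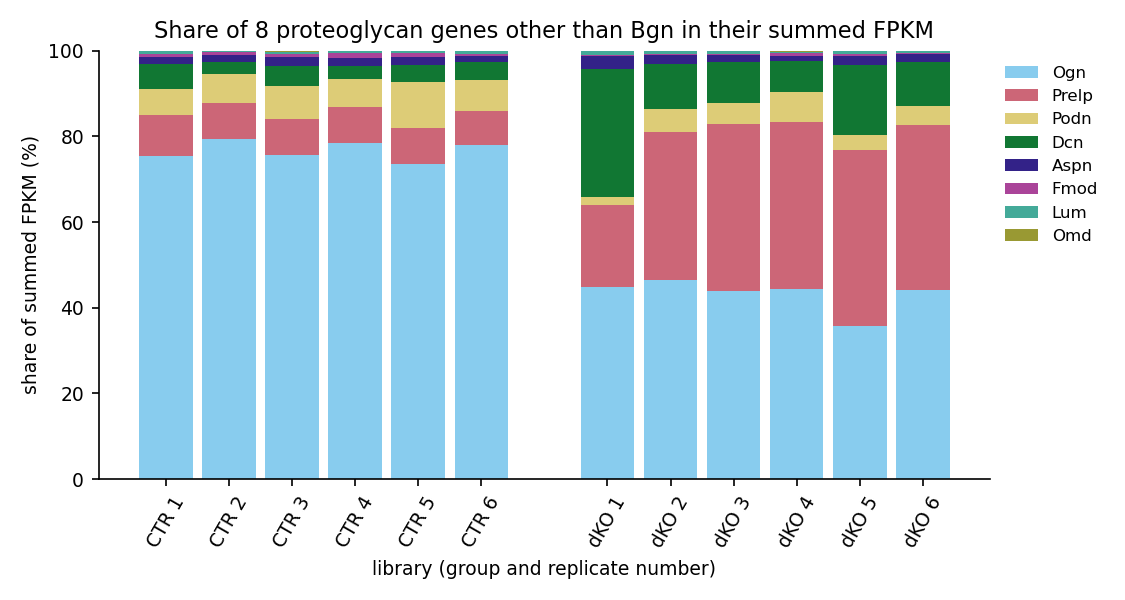
Share of each of 8 proteoglycan genes in their summed FPKM (%), one bar per library. Ogn takes 73.5% to 79.3% of each CTR bar and 35.8% to 46.4% of each dKO bar, and Prelp and Dcn take larger shares in every dKO bar.

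Of the genes, 7 lie in 3 groups on the genome, with members within 200000 bases of each other. On chromosome 10, Dcn and Lum lie 42835 bases apart. Their FPKM ratio, Dcn over Lum, was 8.97 ± 1.03 in CTR and 20.9 ± 6.03 in dKO, without overlap. It rests on 20 to 61 fragments of Lum in a CTR library and 22 to 50 in a dKO library. Neighbours on chromosome 1 differed further: Prelp and Fmod lie 107021 bases apart on opposite strands, and the ratio of Prelp to Fmod was 11.7 ± 3.81 in CTR and 137 ± 55.5 in dKO, again without overlap. Fmod did not pass the filter and had only 4 to 87 fragments in a dKO library, so the size of the dKO ratio is uncertain. On chromosome 13, Aspn, Omd and Ogn follow each other with gaps of 14881 and 15051 bases. Ogn over Aspn was 45.6 ± 7.73 in CTR and 23.7 ± 8.26 in dKO, with overlap through dKO 4. Ogn over Omd, the pair that is adjacent there, had medians of 793 in CTR and 788 in dKO with wide and overlapping ranges, and rests on the few fragments of Omd. These ratios were also chosen after the values were seen, and that of Dcn to Lum holds the difference in Dcn by which the genes were chosen.

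Other genes beside the members differed in both directions, and some by more than the member itself. Ecm2, a related gene 9645 bases from Aspn, had a log2 fold change of -0.24 (limma, adjusted p = 0.306), and Btg1, the gene before Dcn, one of 0.40 (limma, adjusted p = 0.0191). Fam185a, the protein-coding gene before Lrrc17, was at 3.77 FPKM in CTR and 2.13 in dKO, with all dKO libraries lower, and its log2 fold change was -0.59 (limma, adjusted p = 0.00173). Armc10, on the other side of Lrrc17, had -0.15 (limma, adjusted p = 0.0692). Haus7 and Scp2, next to Bgn and Podn, were lower at -0.46 and -0.71 (limma, adjusted p = 0.0174 and 0.0458), the first a larger difference than that of Bgn. Btg2 after Fmod and Nol8 after Ogn did not pass, at 0.11 and -0.25 (limma, adjusted p = 0.636 and 0.0701). Cenpp, which spans Aspn, Omd and Ogn on the opposite strand, stood at 1.2 ± 0.379 and 0.644 ± 0.172 FPKM, and Optc, 1061 bases from Prelp, at 0.398 and 0.280. Both were below the filter, as were Slc1a7 before Podn and Atp2b3 after Bgn. Gm15851, which overlaps Prelp, and Kera after Lum were not analysed here.

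Libraries of a group varied together in these genes. Within a group, 5 of the 7 fitted genes (Podn, Prelp, Ogn, Aspn and Dcn) had a larger SD of log2(FPKM + 1) than 90% of the tested genes, with Podn and Prelp at 99.7% of them, while Lrrc17 exceeded 76.2% and Bgn 44.6%. CTR 4 was the highest CTR library for 8 of the 10 genes and for 25.8% of the tested genes, and dKO 4 the highest dKO library for 7 of the 10 and for 15.2% of the tested genes. The exceptions in CTR were Bgn, highest in CTR 2, and Lrrc17, which was lowest in CTR 4 and highest in CTR 5. In dKO, the library dKO 1 was lowest for 7 of the 10 genes and for 20.3% of the tested genes. Dcn was an exception, with 18.5 FPKM in dKO 1.

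Marker genes moved with these libraries. CTR 4 also had the highest sum of fibroblast markers in CTR, 551.8 FPKM, and of endothelial markers, 333.7. The macrophage (2856), lung epithelial (481.9) and pericyte (35.0) sums were highest in CTR 4 too, so this was not particular to fibroblast markers. The mesothelial sum was highest in CTR 3. Smooth muscle markers (470.7) and bone, cartilage and tendon markers (5.40) had their lowest CTR sum in CTR 4. The smooth muscle sum was highest in CTR 6, at 1433.3. It is mostly 1 gene, Acta2, with a mean of 773 FPKM in CTR where the mean of the sum was 854. In dKO, the fibroblast sum was highest in dKO 4 (470.1) and lowest in dKO 1 (214.7). The endothelial (506.3) and lung epithelial (344.6) sums were also highest in dKO 4, whereas the macrophage sum was highest in dKO 3 and the pericyte sum in dKO 5. Of the 10 fibroblast markers tested, 3 were lower in dKO and 7 did not pass. All 10 endothelial markers rose, as did 7 of 9 macrophage and 4 of 6 mesothelial markers, where 20.4% of all tested genes rose and 32.6% fell. The mesothelial sum ran from 32.04 to 48.0 in CTR and from 66.1 to 145.3 in dKO. The part of cell mixture in the values of the 10 genes was not tested. With both libraries numbered 4 left out, an alternative chosen after seeing the data, the log2 fold change was 1.503 for Dcn, 1.83 for Prelp, -0.88 for Ogn, -0.90 for Podn, -2.83 for Lrrc17, -0.19 for Bgn and 0.15 for Aspn.

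**Figure D4:**
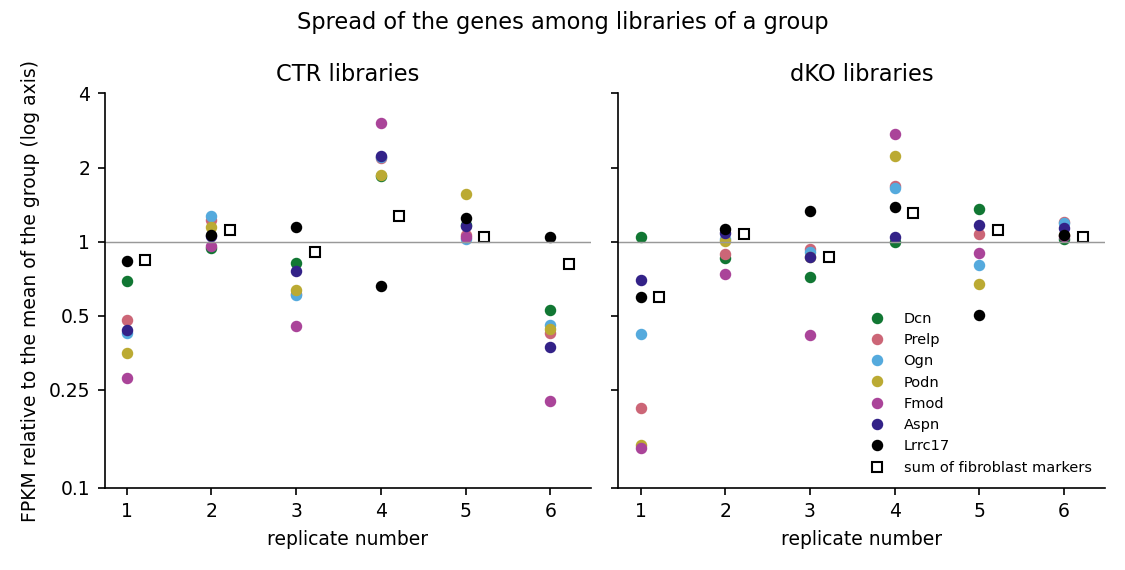
FPKM of 7 genes in each library relative to the mean of its group (log axis), with open squares for the sum of the fibroblast markers. Fmod, Aspn, Ogn, Prelp, Podn and Dcn are highest in CTR 4, where Lrrc17 is lowest, and in dKO 1 Prelp, Podn, Fmod and Ogn lie far below their mean while Dcn lies just above it.

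Genes for the enzymes that build the glycosaminoglycan chains of the family were called in both directions. For the chondroitin and dermatan chains the share called was near the 53.1% of all tested genes. Of 22 genes for the linker and the chondroitin and dermatan chains, 7 rose, 4 fell and 11 did not pass, with a median log2 fold change of 0.01. Chst12, a chondroitin 4-sulfotransferase, rose from 11.9 to 22.8 FPKM, by 0.89 (SE 0.08, limma adjusted p = 3.01e-06). Chst7, which adds sulfate at another position, rose by 0.76 and B4galt7, an enzyme of the linker, by 0.53 (limma, adjusted p = 7.42e-05 and 0.000105). Chst13, a further 4-sulfotransferase, went from 4.02 to 0.551 FPKM with a log2 fold change of -1.62 (SE 0.20, limma adjusted p = 3.13e-05). Chst13 passed the filter through its CTR libraries alone, so this p-value adds no separate support. Chsy1, which extends the chain, and Dse, which turns glucuronic into iduronic acid and so makes dermatan sulfate, fell, at -0.51 and -0.41 (limma, adjusted p = 0.000143 and 7.53e-05). Thus 2 enzymes with the same known sulfation position, Chst12 and Chst13, went in opposite directions. Chst11, another 4-sulfotransferase of the list, was higher in level than both and did not pass. It stood at 24.3 FPKM in CTR and 28.8 in dKO (0.26, limma adjusted p = 0.443). Of 10 genes for keratan sulfate, the sulfate donor and tyrosine sulfation, 1 rose (Tpst2, a tyrosine sulfotransferase, 0.45, limma adjusted p = 0.0021), 2 fell and 7 did not pass. The 3 called are a lower share than 53.1%, and only 1 was called in some alternatives.

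Collagens that the family binds mostly fell. Of 14 tested genes of collagens and elastic matrix, 8 fell, 1 rose and 5 did not pass, with a median log2 fold change of -0.52. Over all tested genes, 32.6% fell and 20.4% rose. Col1a1, a chain of type I collagen, went from 1173 to 572 FPKM (log2 fold change -1.07, SE 0.14, limma adjusted p = 4.75e-05), and all dKO libraries lay below all CTR libraries. Col14a1, a fibril-associated collagen, and Col1a2 were lower, at -1.02 and -0.77 (limma, adjusted p = 0.000469 and 0.000452), also without overlap. Col12a1, another fibril-associated collagen, was the one that rose, at 0.77 (limma, adjusted p = 0.0243). The summed FPKM of this list was highest in CTR 4 (5172.8) within CTR and lowest in dKO 1 (1869.7) within dKO, the same libraries as for the fibroblast sum. This sum is not of collagens alone. It holds Eln, at 63.1 to 874 FPKM in CTR, and Fn1, at 447 to 940, whereas Col1a1 ran from 1070 to 1267 there. Fibroblast markers had negative fold changes in 9 of 10, 3 of them called, and their sums overlapped between the groups. Their part in the values of the collagens was not tested.

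Growth factors and receptors that bind members of the family mostly rose: 13 of 19 rose, 1 fell and 5 did not pass, with a median of 0.67. The shares over all tested genes were 20.4% higher and 32.6% lower. Bmp2 and Bmp4, bone morphogenetic proteins, rose by 1.19 and 1.10 (limma, adjusted p = 1.43e-06 and 1.68e-05). Tgfb1, the classical ligand of decorin, rose from 15.6 to 27.2 FPKM (0.76, limma adjusted p = 1.43e-06). Cd14, a coreceptor of Toll-like receptors and a monocyte gene, rose by 1.19 (limma, adjusted p = 0.0129), with dKO 5 at 64.0 FPKM and the other dKO libraries between 8.87 and 16.2. Egfr, a receptor bound by decorin, was the one that fell, at -0.64 (limma, adjusted p = 0.000322). The macrophage marker sum ran from 1638.2 to 2856.3 in CTR and from 2230.6 to 5472.1 in dKO, and its part in the values of Cd14 was not tested.

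Among 12 tested proteases that process or cleave the family, 4 rose, 2 fell and 6 did not pass. The share called is near the 53.1% of all tested genes. Mmp12, the macrophage elastase, went from 0.317 to 7.76 FPKM (log2 fold change 2.67, SE 0.19, limma adjusted p = 6.5e-07). Mmp12 passed the filter through its dKO libraries alone, so this p-value adds no separate support. Bmp1, which matures several members, did not pass, at -0.13 (limma, adjusted p = 0.266). Of 15 other proteoglycans, 5 rose, 3 fell and 7 did not pass, again a share near 53.1%. Serglycin, the proteoglycan of secretory granules in blood cells and endothelium, rose most, with Srgn at 12.9 FPKM in CTR and 81.8 in dKO (2.60, limma adjusted p = 1.31e-06). Sdc3, a syndecan, and Esm1, an endothelial dermatan sulfate proteoglycan, rose by 1.22 and 0.98 (limma, adjusted p = 7.51e-06 and 0.000366). Col18a1, a basement membrane proteoglycan, and Gpc1, a glypican, were lower at -0.85 and -0.48 (limma, adjusted p = 3.08e-05 and 0.000255).

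Leucine-rich repeat proteins outside the family offered a wider frame for Lrrc17. Of 15 tested, 6 rose, 3 fell and 6 did not pass, with a median of 0.13, where 20.4% of all tested genes rose and 32.6% fell. Lrrn4, which is also known from mesothelium, rose from 1.01 to 6.22 FPKM, by 1.82, and Lrg1, a secreted protein of inflamed vessels, by 1.72 (limma, adjusted p = 9.8e-06 and 1.55e-05). Nrros, a myeloid protein that anchors latent transforming growth factor beta, rose by 1.16, and Slit2, a guidance ligand, was lower at -0.63 (limma, adjusted p = 4.57e-05 and 8.83e-05). None of the 15 fell by more than 1.5 on the log2 scale, but only 0.553% of all tested genes did. So few genes cannot show whether the fall of Lrrc17, by which it was chosen, is unusual among them. The 2 other tested relatives of the proteoglycan family, Tsku and Ecm2, did not pass, at -0.05 and -0.24 (limma, adjusted p = 0.878 and 0.306), and 6 more (Chad, Chadl, Epyc, Nyx, Optc and Podnl1) were below 1 FPKM in every library.

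Genes of the osteoclast pathway in which Lrrc17 was described mostly rose: 7 of 9 rose, 1 fell and 1 did not pass, with a median of 0.87. Among all tested genes, 20.4% rose and 32.6% fell. Tnfrsf11a, the receptor RANK, went from 0.602 to 3.19 FPKM and Tnfrsf11b, its decoy osteoprotegerin, from 1.13 to 5.31, by 1.36 and 1.58 (limma, adjusted p = 8.69e-06 and 2.17e-05). Tnfrsf11a passed the filter through its dKO libraries alone, so its p-value adds no separate support. Acp5, a phosphatase of osteoclasts and macrophages, rose by 1.2 (limma, adjusted p = 1.6e-05). Tnfsf11, the ligand RANKL, was the one that fell, at -0.78 (limma, adjusted p = 0.00701). Among bone, cartilage and tendon markers, Alpl, Bglap, Comp, Ibsp and Sp7 were below 1 FPKM in every library. Several genes of this pathway are also expressed by macrophages. Of 9 macrophage markers tested, 7 rose, Marco fell from 119 to 43.1 FPKM (limma, adjusted p = 0.00404) and Chil3 did not pass. The sums of the 10 markers overlapped between the groups, with means of 2112 in CTR and 3464 in dKO. Chil3 alone gave 1107 and 1061 of these. Cd68, Adgre1, Csf1r, Lyz2, Itgam and Fcgr1 lay higher in every dKO library than in any CTR library, while Mrc1 and Marco overlapped. The part of macrophages in the osteoclast list was not tested.

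**Figure D5:**
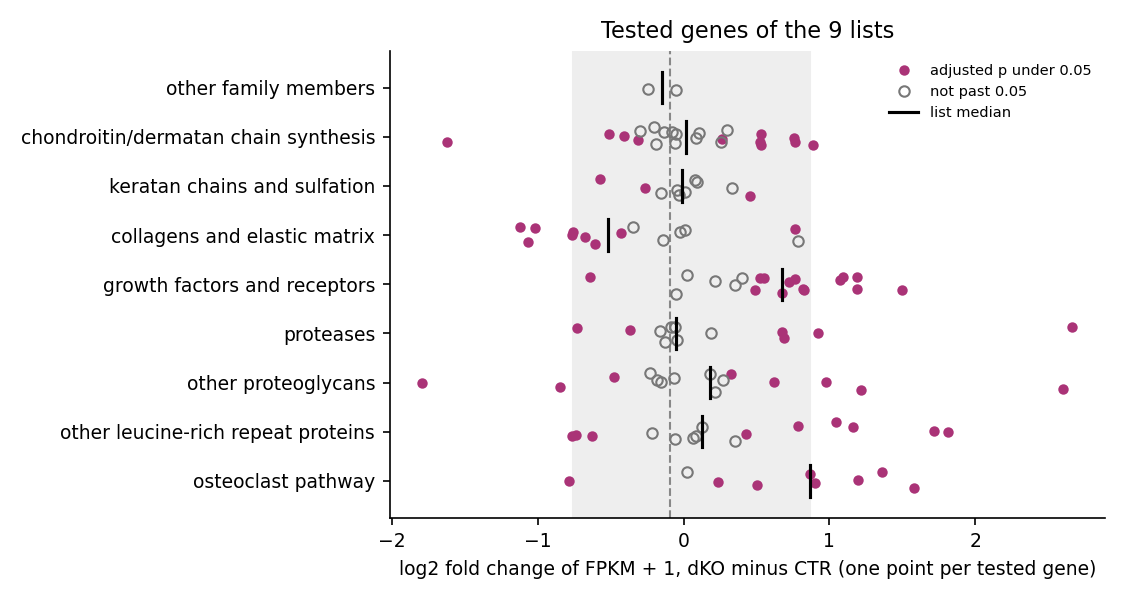
Log2 fold change of FPKM + 1, dKO minus CTR, of each tested gene of the 9 lists, filled where the adjusted p was under 0.05, with a black line at the list median and the middle 90% of all tested genes in grey. The median lies at -0.52 for collagens and elastic matrix, at 0.67 for growth factors and receptors and at 0.87 for the osteoclast pathway, and between -0.15 and 0.18 for the other 6 lists.

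Genes with the most similar profile were sought among all tested genes for Dcn and Lrrc17, by the root mean square difference over the 12 libraries of log2(FPKM + 1) centred on the CTR mean. For Dcn they were Fas, a death receptor, at 0.202, Hpgd, which degrades prostaglandins, at 0.236, and Ccdc68 at 0.245, where the median over all tested genes was 1.10. Those of Lrrc17 were P2rx3, an ATP-gated channel, at 0.242, Slc7a5, an amino acid transporter, at 0.254, and Aldh1l2, a mitochondrial folate enzyme, at 0.313, with a median of 1.86. The log2 fold changes were 1.26, 1.04 and 1.33 for Fas, Hpgd and Ccdc68, and -2.72, -2.44 and -2.42 for P2rx3, Slc7a5 and Aldh1l2. Slc7a5 differed from Lrrc17 in level, at 96.3 FPKM in CTR and 16.7 in dKO. The measure includes the difference between the groups, which the choice of Dcn and Lrrc17 had used.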

How the data were processed

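RNA-seq of MLECs from 6 CTR and 6 dKO libraries was analysed. Cells were selected with CD31 beads and later ICAM2 beads. Per the methods, the authors used Trimmomatic for trimming and STAR for alignment to mm39, and realigned the uniquely aligned reads; the submitters' processing notes name Bowtie2 2.2.3, HISAT2 2.1.0, TopHat2 and DESeq2, and the order of these tools is not given. The counting program, annotation and strand setting are not given in the sources used here. The authors deposited FPKM values (fragments per kilobase, scaled to library depth), which carry no counts.

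The dKO columns bear a name taken from tamoxifen and were assigned through the labels. Fragments per library and per gene were recovered from the FPKM to describe the depth behind the values. The gene lengths needed for this were inferred from the same FPKM. The fragments entered no fit. From the FPKM, log2(FPKM + 1) was fitted with limma 3.58.1 (lmFit, eBayes with a trend, R 4.3.3) over genes that reached 1 FPKM in 6 or more libraries, with Benjamini-Hochberg adjustment and a threshold of 0.05. The step was tested on simulated data. Of 28689 genes, 27706 matched GENCODE on GRCm39 and 983 did not. Promoters were read from GRCm39 at the start of the canonical transcript. The genes and lists were chosen with earlier results of these data known. Named list genes are, per list, up to 3 that rose and 3 that fell most among called genes without overlap. Tgfb1, Col12a1, Bmp1, Tnfsf11, Chst11 and the 2 relatives Tsku and Ecm2 were added after their values were seen, as were the marker genes named. Python 3.11.15, NumPy 2.4.6, pandas 2.3.3 and Matplotlib 3.10.9 were used. Alternatives were other pseudocounts, filters and scalings, a replicate block, and omission of each library in turn.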

Additional observations from a re-analysis of the deposited data

Results flagged for a closer look

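Among 78 groups of 6 values examined for these genes, Sp1, Sp3 and the named list genes, 8 had one library far from the other 5, measured as its gap to the nearest other value over the range of the group, where chance would give 3.9. Of these, 4 lie in the proteoglycans, and all 4 in a library numbered 4. Lum stood at 1.43 FPKM in CTR 4, against 0.480 to 0.764 in the other CTR libraries. Fmod stood at 5.47 in CTR 4, against 0.409 to 1.89, and at 1.47 in dKO 4, against 0.0779 to 0.564. Omd stood at 0.471 in dKO 4, against 0.0268 to 0.152. These are the 3 genes below the filter. The fold changes given for them without the filter, and the ratios of Dcn to Lum and Prelp to Fmod, include these values.

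The other 4 lie in list genes. Cd14 stood at 64.0 FPKM in dKO 5, against 8.87 to 16.2 in the other dKO libraries. Sdc3 stood at 72.3 in dKO 3, against 43.3 to 52.6. Dse stood at 26.7 in dKO 1, against 29.3 to 30.8. Lrrn4 stood at 0.332 in CTR 6, against 1.02 to 1.31. All 4 genes kept their direction and their call with each library left out in turn.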

How the results depend on the processing

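Over 20 alternatives, 12 of which left out 1 library, the 27 named list genes kept direction and call wherever they had a value. Dcn stayed between 1.19 and 1.51, Prelp between 1.57 and 2.15, Ogn between -1.19 and -0.71, Podn between -1.12 and -0.50, Bgn between -0.20 and -0.03 and Lrrc17 between -3.97 and -2.62, its lowest values coming with pseudocounts of 0.01 (-3.97) and 0.1 (-3.77) and with TPM (-3.46). Aspn ran from -0.21 to 0.17 and changed sign. The number of genes called over the whole table was 6614 and was 4222 with at least 5 FPKM required, where fewer genes are tested, and 5858 to 6841 with 1 library left out. The 247 genes also past the fold threshold became 525 and 486 with pseudocounts of 0.01 and 0.1 and 387 with TPM, and 231 to 265 with 1 library left out. Groups that did not overlap numbered 2 of the 10 genes, 1 with TPM, and 2 to 3 with 1 library left out. Called genes of the keratan and sulfation list, 3 in all, became 1 with median-of-ratios scaling, with no filter, with pseudocounts of 0.1 and 0.01, and without CTR 3, CTR 4, dKO 2, dKO 5 or dKO 6 (range 1 to 3), and the cause was not tested. Requiring at least 5 FPKM left 7 of 11 calls for the chondroitin and dermatan list, 4 of 9 for the leucine-rich repeat list and 3 of 8 for the osteoclast list, through fewer genes tested. Without a filter, 1 of the other family members was called, against 0. Of all calls, 38.5% were higher in dKO, and 51.6% were with median-of-ratios scaling, which moved the median change from -0.10 to -0.02.

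By the correlations over all tested genes, the replicate numbers were not taken to pair the libraries: deviations of same-numbered libraries correlated at 0.44, 0.16, -0.04, 0.57, 0.01 and -0.11 for numbers 1 to 6, and 2 of 6 (1 and 4) correlated best with their own number. With the replicate block, 6955 genes were called, 247 also past the fold threshold. The SE went from 0.41 to 0.23 for Ogn, from 0.49 to 0.26 for Podn, from 0.47 to 0.29 for Prelp and from 0.22 to 0.19 for Dcn, and stayed near 0.14 for Lrrc17 (0.15).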
